A study of Mus musculus with 6 samples.

Results

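The genes described here are the machinery and receptors of autophagy, 47 genes chosen by name from knowledge of the pathway, with earlier results of these data known, and all 47 were found by gene name among the 54532 genes of the count table. All 47 also passed the filter on low counts that left 13134 genes for testing, so no member dropped out. The study compared injured livers of mice with a hepatocyte-specific deficiency of the transcription factor IRF8 (IRF8-cKO) with those of wild-type mice (WT), with 3 bulk RNA libraries a group, named by group and number (IRF8-cKO-106, IRF8-cKO-88, IRF8-cKO-71, WT-77, WT-44 and WT-14). Both groups were C57BL/6 and underwent warm ischemia for 1 h, in which blood flow to some liver lobes is blocked, then reperfusion for 12 h, and the ischemic lobe was taken. No uninjured liver is among the samples analysed here. The labels name neither the Cre line behind the hepatocyte deletion nor the age or sex of the mice. In reads, Y-linked Ddx3y had 888 to 1995 per library and Xist 0 to 2, the pattern of male tissue in both groups. The labels also do not say that each library is a separate animal, so the p-values rest on a spread among libraries that may be technical.

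Autophagy encloses cytoplasm in a double membrane, the autophagosome, and delivers it to the lysosome. The ULK1 kinase complex starts the process under control of the nutrient sensors mTORC1 and AMPK, and a phosphatidylinositol 3-kinase complex built around Beclin 1 marks the site where the membrane, called the phagophore, grows. A pair of linked conjugation reactions then attach proteins of the ATG8 family (LC3 and GABARAP proteins) to phosphatidylethanolamine in that membrane, and cargo receptors such as p62 bind both ATG8 proteins and ubiquitin-tagged cargo. In hepatocytes the pathway removes damaged mitochondria and protein aggregates and supplies nutrients during fasting, and it has long been studied in liver ischemia and reperfusion. Much of its control lies in proteins, their phosphorylation and lipid attachment, which transcript counts do not measure.

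No autophagy gene passed the test between genotypes at the transcript level. With edgeR's quasi-likelihood test, 0 of the 47 members were called at an adjusted p of 0.05, against 1.39% of all genes tested, while DESeq2 called 4 and limma-voom 0, and the lowest edgeR adjusted p among them was 0.0888. At an unadjusted p under 0.05 there were 9 members, or 19.1%, beside 24.1% of all genes tested. All 9 were higher in IRF8-cKO, where 12.1% of all genes were higher and 12% lower at that p. These 9 were Atg2b, Atg9a, Rubcn, Atg5, Atg16l2, Atg4c, Optn, Nbr1 and Tfeb, with log2 fold changes from 0.64 to 1.69. The median log2 fold change of the members was 0.11, with 26 positive and 21 negative, and that of all genes tested was 0.03. For 24 of the 47 (51.1%) the 95% interval of the log2 fold change lay wholly inside a 2-fold change either way, which held for 23.5% of all genes tested. The plot of log2 fold changes by role shows these intervals.

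**Figure D1:**
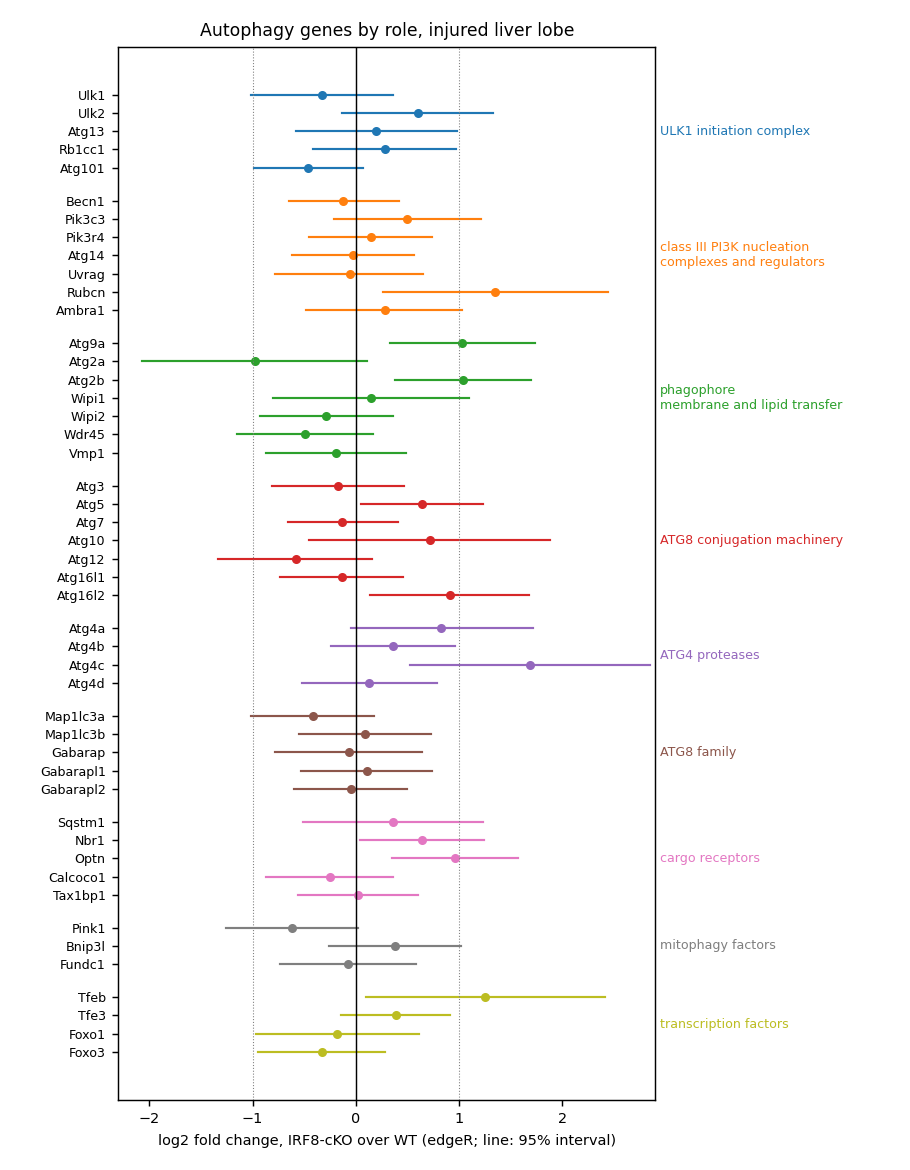
Log2 fold change of IRF8-cKO over WT for each of the 47 genes (points) with its 95% interval (lines), on the horizontal axis, grouped and coloured by role; dotted lines mark a 2-fold difference. The widest departures to the right are Atg4c, Rubcn and Tfeb, the widest to the left is Atg2a, and the 5 ATG8 family genes lie between -0.41 and 0.11.

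Depth, tissue and library differences bear on every value below. The libraries held 14758237 to 16805830 gene counts and differed far beyond sampling noise within each group, so none was a copy of another. The targeted gene Irf8 had 110 to 155 reads in the WT and 90 to 109 in the IRF8-cKO libraries (log2 fold change -0.81, edgeR adjusted p = 0.174), and whole liver also holds Irf8 transcripts from immune cells. Hepatocyte markers dominated as the label says, with 10 (8 of 10 negative, 0 called, median log2 fold change -0.55) summing to 79718 to 125540 CPM (counts scaled to a common library size with edgeR's TMM factors) in WT and 63994 to 81739 CPM in IRF8-cKO. Mitochondrially encoded genes took 7.19% to 20.2% of counts in WT and 5.99% to 7.14% in IRF8-cKO. Neutrophil markers (10 genes, 8 tested and all 8 negative, 5 called lower) summed to 183 to 225 CPM in WT and 23.4 to 53.3 CPM in IRF8-cKO, and Kupffer cell markers (8 of 8 positive, 0 called) to 183 to 225 CPM and 239 to 502 CPM. Cholangiocyte markers (8 genes, 7 tested, 6 of 7 negative, 0 called) summed to 465 to 947 CPM and 149 to 257 CPM, and erythroid and platelet markers (8 of 8 negative, 1 called) to 232 to 333 CPM and 105 to 157 CPM. Monocyte and macrophage markers (3 of 8 positive, 0 called) summed to 109 to 117 CPM in WT and 79.1 to 109 CPM in IRF8-cKO. Sinusoidal endothelial markers (6 of 8 positive, 0 called) summed to 111 to 176 CPM and 122 to 189 CPM. Stellate cell and fibroblast markers (6 of 8 positive, 0 called) summed to 220 to 336 CPM and 186 to 318 CPM. The T and NK cell and the B cell lists had 1 tested gene each. None of the marker genes was at 0 in all libraries. Autophagy genes are expressed in all of these cells; the part of these differences in the results was not tested, and in bulk tissue fewer cells of a type and less RNA per cell cannot be told apart.

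Members are compared with each other only as CPM per kilobase of gene model (CPM per kb), a level. By this measure Sqstm1 was the most abundant of the 47 at 337 CPM per kb over the 6 libraries, followed by Gabarap at 111, Gabarapl1 at 86.6 and Vmp1 at 68.4, and Tfeb was the lowest at 0.595. Among the genes of the conjugation machinery, Atg7 was at 4.84 and Atg3 at 17.2 CPM per kb, the latter close to Gabarapl2, the lowest of the ATG8 family, at 17.6. Sqstm1, at 205 to 554 CPM per kb over the libraries, lay above the range of every other member. Below it, neighbours in this order had overlapping ranges over the libraries, with Gabarap at 71.7 to 147 CPM per kb and Gabarapl1 at 73.5 to 114. Members at an unadjusted p under 0.05 were mostly of low level, with 6 of the 9 under 3 CPM per kb on average. Of all 47, those ranked 35 to 47 by level lay under 3 CPM per kb. Gene length as the table gives it is that of the whole gene model, so the level of a gene read mainly as a short isoform is understated. Exon bases shared with another gene are a further limit, found in 18 members. The shares include 43.9% in Becn1 (with Cntd1, opposite strand, 0.3 reads per library) and 31.8% in Atg9a (with Gm29253, same strand, 0.0 reads per library). In 6 of the 18 members an overlapping gene had at least 10% of the member's reads. Reads on shared bases cannot be assigned with certainty.

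**Figure D2:**
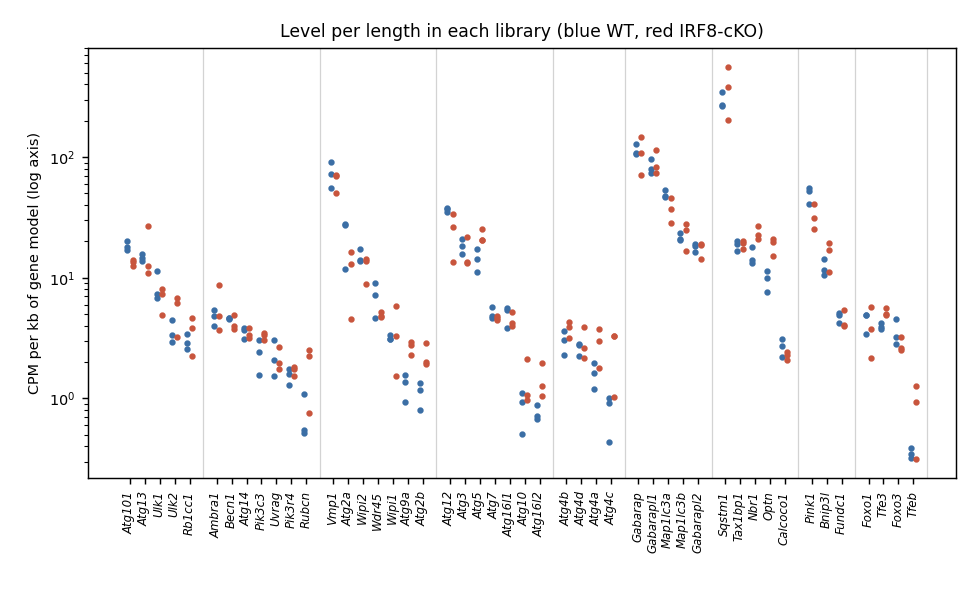
Level of each gene in each library as CPM per kb of gene model (log axis), genes grouped by role and ordered within a role by the WT mean; blue points are the 3 WT and red points the 3 IRF8-cKO libraries. Sqstm1 lies highest, followed by Gabarap and Gabarapl1, and Tfeb lowest.

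Promoter sequences are shown for the 4 members with the lowest p, as the regions where elements shared by these genes would be looked for first. They are RefSeq windows on GRCm38.p6 from 250 bases before to 50 after a transcript start, in the direction of the gene, in lower case because none of the 3 motifs searched on both strands occurs in them. The motifs were CACGTG, the core of the element bound by TFEB and related factors, GTAAACA, a forkhead element, and GAAANNGAA, the tandem GAA core of IRF elements, and motif letters would be in capitals. The windows lie at chr12:105685192-105685491 (Atg2b, minus strand), chr2:5064068-5064367 (Optn, minus), chr1:75191961-75192260 (Atg9a, minus) and chr4:99193684-99193983 (Atg4c, plus, the transcript start that the count table's gene model gives).
Atg2b: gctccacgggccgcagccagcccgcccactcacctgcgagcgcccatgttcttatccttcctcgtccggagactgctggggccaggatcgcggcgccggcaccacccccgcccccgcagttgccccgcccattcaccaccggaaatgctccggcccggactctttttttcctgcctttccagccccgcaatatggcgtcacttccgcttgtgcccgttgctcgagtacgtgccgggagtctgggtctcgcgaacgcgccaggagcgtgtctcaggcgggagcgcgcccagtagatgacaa
Optn: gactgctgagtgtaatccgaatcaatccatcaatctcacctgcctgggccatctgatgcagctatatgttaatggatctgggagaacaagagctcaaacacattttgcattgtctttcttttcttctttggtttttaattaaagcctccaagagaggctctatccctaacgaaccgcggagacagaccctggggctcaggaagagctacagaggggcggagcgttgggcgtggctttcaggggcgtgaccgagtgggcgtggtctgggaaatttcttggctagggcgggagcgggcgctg
Atg9a: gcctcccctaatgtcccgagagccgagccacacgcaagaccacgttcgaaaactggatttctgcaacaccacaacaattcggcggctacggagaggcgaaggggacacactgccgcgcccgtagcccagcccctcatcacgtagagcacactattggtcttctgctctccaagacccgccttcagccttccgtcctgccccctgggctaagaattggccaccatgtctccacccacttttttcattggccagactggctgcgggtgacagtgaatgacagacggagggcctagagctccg
Atg4c: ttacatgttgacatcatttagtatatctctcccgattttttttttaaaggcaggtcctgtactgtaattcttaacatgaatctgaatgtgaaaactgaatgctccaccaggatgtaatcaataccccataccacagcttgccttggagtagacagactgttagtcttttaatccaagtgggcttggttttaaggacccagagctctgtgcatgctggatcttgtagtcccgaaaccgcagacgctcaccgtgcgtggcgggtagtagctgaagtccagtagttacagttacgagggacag
By composition they range from 44.7% G or C in Atg4c to 67.3% in Atg2b.

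Of the other 5 members at an unadjusted p under 0.05, 3 had a match, which is printed with 25 bases on either side and the motif in capitals. The CACGTG of Rubcn begins 88 bases before an internal RefSeq transcript start (chr16:32868424-32868479, minus strand) that lies 9400 bases inside the count table's gene model. That of Atg5 begins 14 bases before a start (chr10:44268300-44268355, plus) that lies 19 bases from the gene model's own. The GAAANNGAA of Nbr1 begins 9 bases before another internal start (chr11:101552620-101552678, plus), 505 bases inside the gene model. The RefSeq promoters nearest the gene model's start in Rubcn and Nbr1 held none of the 3 motifs.
Rubcn: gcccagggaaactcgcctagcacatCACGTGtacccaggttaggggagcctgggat
Atg5: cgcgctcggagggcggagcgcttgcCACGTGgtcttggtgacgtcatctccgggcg
Nbr1: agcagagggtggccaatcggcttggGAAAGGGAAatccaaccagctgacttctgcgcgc
Over the whole family, 50 promoters of 40 members were in the RefSeq table. CACGTG was in 5 of these 50 promoters (10%; Atg3, Atg5, Atg7, Atg14 and Rubcn), beside 7.15% of all 32851 promoters. GAAANNGAA was in 3 (6%; Atg10, Nbr1 and Uvrag), beside 8.56%, and GTAAACA in 0, beside 3.65%. A match describes the letters only.

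In the ULK1 initiation complex, 0 of 5 members passed and the median log2 fold change was 0.20. Values by library are given from here on in the order WT-14, WT-44, WT-77 and then IRF8-cKO-71, IRF8-cKO-88, IRF8-cKO-106. Ulk1, the kinase that mTORC1 restrains and AMPK activates, stood at 43.8, 47.6 and 74.1 CPM in the WT libraries and 32.1, 52.2 and 47.7 in the IRF8-cKO libraries (log2 fold change -0.33, SE 0.31, edgeR adjusted p = 0.538). The groups overlapped, and WT-77 was the highest library. Its paralogue Ulk2 stood at 26.7, 19.9 and 17.5 CPM in the WT libraries and 40.8, 19.4 and 36.6 in the IRF8-cKO libraries (log2 fold change 0.60, SE 0.33, edgeR adjusted p = 0.287). IRF8-cKO-88 lay within the WT range while both other IRF8-cKO libraries lay above it. Atg101, which stabilises ATG13 in the complex, was at 28.9, 31.9 and 27.2 CPM in the WT libraries and 21.7, 19.9 and 22.4 in the IRF8-cKO libraries, a fold of 1.38 between groups that did not overlap (log2 fold change -0.46, SE 0.24, edgeR adjusted p = 0.259). The scaffold genes Atg13 and Rb1cc1 (encoding FIP200) had log2 fold changes of 0.20 and 0.28 with overlapping groups. Atg13 reached 117 CPM in IRF8-cKO-88 against 48.2 to 68.8 CPM in the other 5 libraries.

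Across the Beclin 1 lipid kinase complexes and their regulators, 0 of 7 members passed and the median was 0.15. Becn1, encoding the scaffold Beclin 1, was among the steadiest members, at 32.5, 32.9 and 32.0 CPM in the WT libraries and 28.1, 35.0 and 26.8 in the IRF8-cKO libraries. Its log2 fold change was -0.12 (SE 0.24, 95% interval -0.65 to 0.42, edgeR adjusted p = 0.795), so a change of 2-fold in either direction lies outside the interval. Atg14, which directs the kinase to the phagophore, and Uvrag, which takes the same place in a second complex acting on endosomes, had log2 fold changes of -0.03 and -0.06. Stretches of 214 to 345 bases of Uvrag transcripts are at least 95% identical to transcripts of other genes. Among them is Mettl6, with 392.8 reads per library against 313.8 for Uvrag, so part of the Uvrag reads is uncertain. The catalytic subunit gene Pik3c3 (0.50) was higher in each IRF8-cKO than in each WT library, but only just. The nearest libraries were IRF8-cKO-106 at 13.6 CPM and WT-14 at 13.5 CPM. Without WT-44, the lowest library at 6.99 CPM, the log2 fold change of Pik3c3 was 0.28. The regulatory subunit gene Pik3r4 (0.15) and Ambra1 (0.28) overlapped between groups.

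Rubcn, encoding Rubicon, an inhibitor of the UVRAG complex and of autophagosome maturation, had the second largest positive log2 fold change of the 47. Its levels were 8.15, 3.89 and 4.12 CPM in the WT libraries and 16.9, 5.68 and 18.7 in the IRF8-cKO libraries (log2 fold change 1.35, SE 0.49, edgeR adjusted p = 0.140). IRF8-cKO-71 and IRF8-cKO-106 lay above all WT libraries, and IRF8-cKO-88 lay below WT-14. Exons of Rubcn share 171 bases (2.3% of its exon bases) with Fyttd1 on the opposite strand, a gene with more reads (626.7 against 168.2 per library) and a log2 fold change of -0.03. The strand setting of the counting is not given in the sources used here, so reads of such a pair cannot be assigned with certainty.

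Genes of phagophore membrane supply and lipid transfer had log2 fold changes of both signs, with a median of -0.19 and 0 of 7 passing. Atg2b (ENSMUSG00000041341, chromosome 12, 105616136 to 105685211, mm10) encodes a protein that transfers lipids from the endoplasmic reticulum into the growing membrane, and it had the lowest p of all members. Its levels were 10.7, 15.9 and 17.9 CPM in the WT libraries and 27.2, 26.2 and 38.4 in the IRF8-cKO libraries. Every IRF8-cKO library was above every WT library, for a 2.06-fold difference (log2 fold change 1.04, SE 0.30, 95% interval 0.38 to 1.70, edgeR adjusted p = 0.0888). Atg2b shares 383 exon bases (2.8%) with Gskip on the opposite strand, which had a log2 fold change of 1.45 (edgeR adjusted p = 0.0887), and stretches of 536 to 984 bases of its transcripts are at least 95% identical to transcripts of 4 other genes, among them D10Wsu102e with 1140.2 reads per library, so part of its reads is uncertain. Its paralogue Atg2a had a log2 fold change of the opposite sign that did not pass, at 91.4, 215 and 211 CPM in the WT libraries and 35.1, 126 and 100 in the IRF8-cKO libraries (log2 fold change -0.98, SE 0.49, edgeR adjusted p = 0.244). WT-14 lay within the IRF8-cKO range for Atg2a, and IRF8-cKO-71 was far below the other libraries.

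Atg9a (ENSMUSG00000033124, chromosome 1, 75180860 to 75192196) encodes the lipid scramblase whose vesicles seed the membrane. It was at 9.07, 5.35 and 7.91 CPM in the WT libraries and 13.1, 16 and 16.8 in the IRF8-cKO libraries. The groups did not overlap and differed 2.05-fold (log2 fold change 1.03, SE 0.32, 95% interval 0.33 to 1.74, edgeR adjusted p = 0.101). Log2 fold changes of the readers of the lipid mark and of other membrane factors came with overlapping groups: Wipi1 (0.15), Wipi2 (-0.29), Wdr45 (-0.49) and Vmp1 (-0.19). Wipi1 was nearly level in WT, at 13.7 to 14.8 CPM, but ran from 6.76 CPM in IRF8-cKO-106 to 25.9 CPM in IRF8-cKO-88.

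Among the enzymes and scaffolds of ATG8 conjugation 0 of 7 passed, with a median of -0.13. Atg5, which joins ATG12 in the conjugate that directs LC3 to the membrane, stood at 40.8, 33.5 and 26.4 CPM in the WT libraries and 60.1, 48.1 and 48.8 in the IRF8-cKO libraries, without overlap (log2 fold change 0.64, SE 0.27, edgeR adjusted p = 0.183). Atg12, its partner, was at 93, 94.2 and 87.6 CPM in the WT libraries and 33.9, 83.8 and 65.7 in the IRF8-cKO libraries, also without overlap but lower (log2 fold change -0.58, SE 0.34, edgeR adjusted p = 0.308). IRF8-cKO-71 was the lowest library, and without it the log2 fold change of Atg12 was -0.28. IRF8-cKO-88 lay just below the lowest WT library. Atg7, the E1-like enzyme that activates both ATG12 and the ATG8 proteins, was at 32.2, 40.1 and 33.3 CPM in the WT libraries and 30.9, 32.1 and 33.7 in the IRF8-cKO libraries (log2 fold change -0.13, SE 0.24, 95% interval -0.66 to 0.41, edgeR adjusted p = 0.777).

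Atg16l2, a paralogue of the scaffold ATG16L1 with a less established role in autophagy, stood at 5.70, 6.04 and 7.51 CPM in the WT libraries and 16.6, 8.94 and 10.7 in the IRF8-cKO libraries. The groups did not overlap, and IRF8-cKO-71 was the highest library (log2 fold change 0.91, SE 0.35, edgeR adjusted p = 0.154). Atg16l1 itself had a log2 fold change of -0.13, Atg3, the E2-like enzyme for ATG8 proteins, -0.17, and Atg10, the E2-like enzyme for ATG12, 0.72 on 13 to 59 reads per library, each with overlapping groups.

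All 4 ATG4 proteases, which trim ATG8 proteins before conjugation and release them from membranes, had positive log2 fold changes, with a median of 0.60, and 0 of 4 passed. Atg4c (ENSMUSG00000028550, chromosome 4, 99193934 to 99259787) had the largest log2 fold change of the 47, 1.69 (SE 0.52, 95% interval 0.53 to 2.85, edgeR adjusted p = 0.102). Its levels were 3.37, 1.47 and 3.06 CPM in the WT libraries and 11.1, 3.45 and 11.1 in the IRF8-cKO libraries, on 17 to 55 reads in WT and 56 to 240 in IRF8-cKO. IRF8-cKO-88 exceeded WT-14 by only a small margin, while both other IRF8-cKO libraries were several times higher. Atg4a was at 5.21, 3.19 and 4.32 CPM in the WT libraries and 10.1, 4.75 and 7.92 in the IRF8-cKO libraries (log2 fold change 0.83, SE 0.40, edgeR adjusted p = 0.228). The groups overlapped, with IRF8-cKO-88 below WT-14. Atg4b, the main LC3 protease, and Atg4d were at 0.36 and 0.13. Atg4d shares 19.3% of its exon bases with Kri1 on the opposite strand.

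In the ATG8 family itself 0 of 5 passed, with a median log2 fold change of -0.05. Map1lc3b, whose lipid-bound protein LC3-II is the usual marker of autophagosomes, stood at 157, 155 and 178 CPM in the WT libraries and 208, 188 and 125 in the IRF8-cKO libraries (log2 fold change 0.09, SE 0.29, 95% interval -0.55 to 0.73, edgeR adjusted p = 0.873). The WT libraries lay between both extremes of the IRF8-cKO group. Map1lc3a was at 55.5, 55.7 and 63.5 CPM in the WT libraries and 33.5, 43.7 and 54.2 in the IRF8-cKO libraries, each below the lowest WT library (log2 fold change -0.41, SE 0.27, edgeR adjusted p = 0.360). Gabarap was at 198, 238 and 194 CPM in the WT libraries and 271, 198 and 132 in the IRF8-cKO libraries (log2 fold change -0.07, 95% interval -0.78 to 0.64).

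Gabarapl1, a FOXO target in other tissues, was at 161, 150 and 193 CPM in the WT libraries and 166, 148 and 229 in the IRF8-cKO libraries (log2 fold change 0.11, 95% interval -0.53 to 0.74), and Gabarapl2 was at 42.7, 43.9 and 38.1 CPM in the WT libraries and 44.2, 43.2 and 33.0 in the IRF8-cKO libraries (log2 fold change -0.05, 95% interval -0.60 to 0.50). The spread, unlike the mean, was wider in IRF8-cKO for all 5, with a median SD of log2 CPM of 0.35 against 0.11 in WT. Over all members the larger SD was in IRF8-cKO for 28 of 47 (59.6%), beside 62.9% of all genes tested. Other genes with transcripts nearly identical to Map1lc3b or Gabarapl2 drew few reads, at most 59.3 per library on average against 2693.0 for Map1lc3b.

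Cargo receptors held 2 of the 9 members at an unadjusted p under 0.05 (40% of 5, beside 24.1% of all genes tested), and 0 of 5 passed. Phagophore membrane genes and ATG8 conjugation genes also held 2 each (28.6% of 7). Optn (ENSMUSG00000026672, chromosome 2, 5020642 to 5064051) encodes optineurin, a receptor for ubiquitinated mitochondria and bacteria. Its levels were 28.4, 37.6 and 42.5 CPM in the WT libraries and 79.1, 74.9 and 57.0 in the IRF8-cKO libraries. Every IRF8-cKO library exceeded every WT library, for a 1.94-fold difference (log2 fold change 0.96, SE 0.27, 95% interval 0.35 to 1.57, edgeR adjusted p = 0.0902). Nbr1, a receptor for protein aggregates and peroxisomes, was at 90.5, 95.9 and 123 CPM in the WT libraries and 183, 145 and 154 in the IRF8-cKO libraries, again without overlap (log2 fold change 0.64, SE 0.27, edgeR adjusted p = 0.185).

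Sqstm1, encoding p62, which autophagy itself degrades and the NRF2 pathway induces, differed more between IRF8-cKO libraries than between groups. It was at 914, 1166 and 896 CPM in the WT libraries and 686, 1267 and 1858 in the IRF8-cKO libraries (log2 fold change 0.36, SE 0.39, 95% interval -0.51 to 1.23, edgeR adjusted p = 0.602). IRF8-cKO-71 was the lowest and IRF8-cKO-106 the highest of all 6 libraries. The log2 fold change was 0.67 without IRF8-cKO-71 and -0.00 without IRF8-cKO-106. Tax1bp1, with a log2 fold change of 0.02 and 168 to 203 CPM over all libraries, was the member with the highest p, and Calcoco1 stood at -0.25.

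Of the mitophagy factors, 0 of 3 passed. Pink1, the kinase that accumulates on damaged mitochondria, was at 110, 140 and 149 CPM in the WT libraries and 109, 83.5 and 67.3 in the IRF8-cKO libraries. The groups did not overlap, but WT-14 and IRF8-cKO-71 lay next to each other (log2 fold change -0.62, SE 0.29, 95% interval -1.26 to 0.02, edgeR adjusted p = 0.218). Bnip3l, encoding the hypoxia-induced mitochondrial receptor NIX, was at 45, 40.8 and 54.7 CPM in the WT libraries and 65.5, 74.8 and 42.8 in the IRF8-cKO libraries, with IRF8-cKO-106 inside the WT range (log2 fold change 0.38, SE 0.29, edgeR adjusted p = 0.436). Fundc1, another mitochondrial receptor gene, stood at -0.08.

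The transcription factor genes had a median of 0.10, and 0 of 4 passed. Tfeb, a master regulator of lysosome and autophagy genes that mTORC1 keeps in the cytoplasm, stood at 1.96, 1.81 and 2.19 CPM in the WT libraries and 7.15, 1.79 and 5.33 in the IRF8-cKO libraries, on 21 to 33 reads in WT and 29 to 116 in IRF8-cKO. IRF8-cKO-88 was the lowest of all 6 libraries, and both other IRF8-cKO libraries were well above WT (log2 fold change 1.25, SE 0.52, edgeR adjusted p = 0.182). Tfe3, its more abundant relative, was 46.4, 45.4 and 51.7 CPM in IRF8-cKO, above the highest WT library at 38.7 CPM (log2 fold change 0.39, SE 0.24, edgeR adjusted p = 0.332). Foxo1, a forkhead factor that insulin signalling excludes from the nucleus, was at 42.5, 29.6 and 42.9 CPM in the WT libraries and 18.9, 49.8 and 32.8 in the IRF8-cKO libraries (log2 fold change -0.18, SE 0.36, edgeR adjusted p = 0.784), and Foxo3 stood at -0.33.

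**Figure D3:**
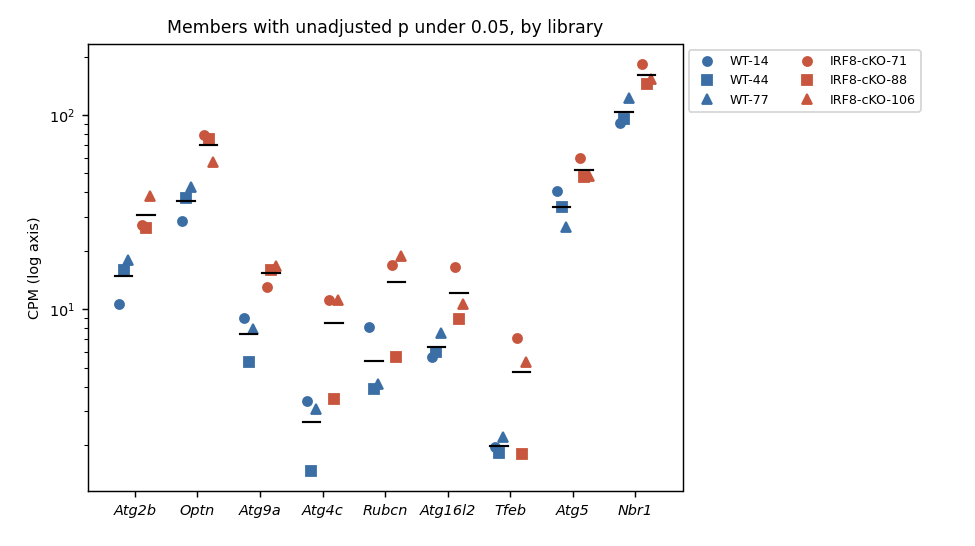
CPM on a log axis in each library for the 9 members with an unadjusted p under 0.05, ordered by p; blue symbols are WT libraries, red symbols IRF8-cKO libraries, the symbol shape names the library and the black line is the group mean. IRF8-cKO-88 (red square) lies near or within the WT range for Atg4c, Rubcn and Tfeb and above it for Atg2b, Optn, Atg9a, Atg16l2, Atg5 and Nbr1.

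Counted over the whole family, 13 members had groups without overlap. In 9 of these (19.1%) IRF8-cKO was higher, beside 14.4% of all genes tested, and in 4 (8.51%) it was lower, beside 14.5%. The 9 were Atg2b, Optn, Atg9a, Atg4c, Atg16l2, Atg5, Nbr1, Pik3c3 and Tfe3, and the 4 were Atg101, Atg12, Map1lc3a and Pink1. A log2 difference above 1 in size was seen in 5 members (10.6%), beside 20.8% of all genes. The median member, relative to its own mean over the 6 libraries, lay between -0.11 in WT-14 and 0.09 in IRF8-cKO-88. IRF8-cKO-71 was the most extreme, holding the highest value of 15 members (31.9%, beside 24.2% of all genes tested) and the lowest of 12 (25.5%, beside 25.5%).

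**Figure D4:**
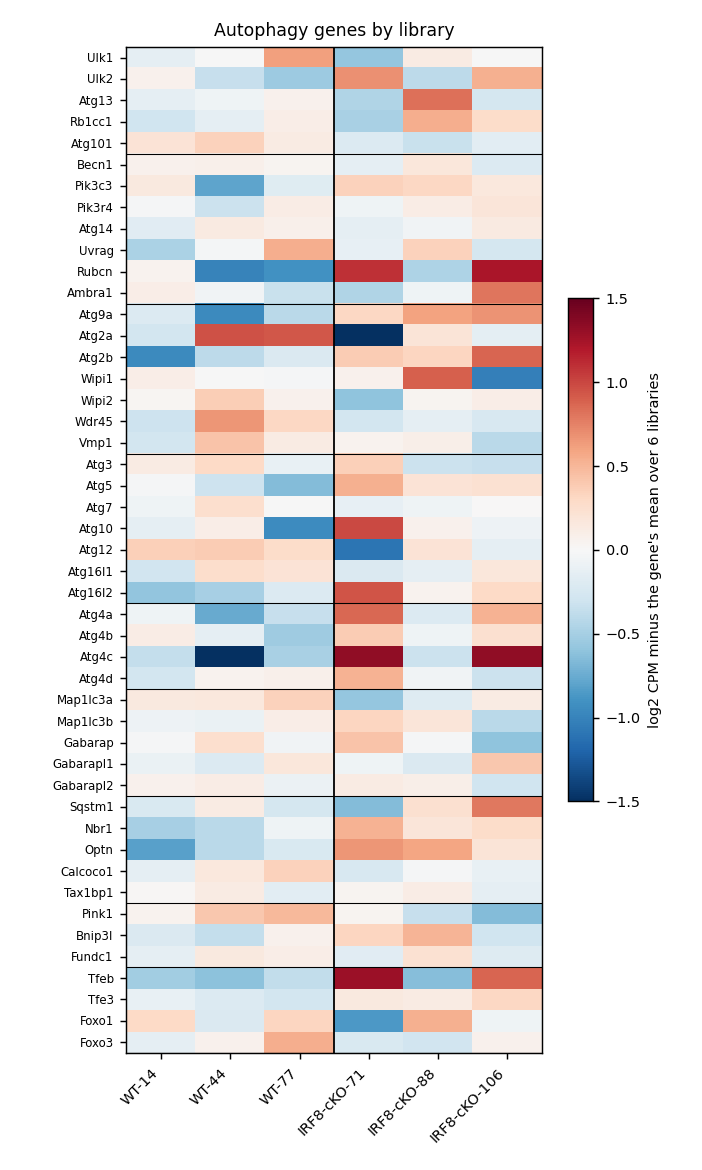
Log2 CPM of each gene minus that gene's mean over the 6 libraries (colour scale, capped at 1.5 either way), genes in rows by role and libraries in columns, with WT left of the vertical line. Rubcn, Atg4c, Atg4a and Tfeb are high in IRF8-cKO-71 and IRF8-cKO-106 but not in IRF8-cKO-88, and Atg2a and Atg12 are lowest in IRF8-cKO-71.

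With edgeR and a filter on low counts, 3 members were called only when IRF8-cKO-88 was left out. Without that library edgeR called Atg4c (log2 fold change 2.06, adjusted p = 0.0185), Rubcn (1.72, adjusted p = 0.026) and Tfeb (1.64, adjusted p = 0.0376) higher. They made up 6.38% of the members, while 8.83% of all genes tested were then called. The median of the members was -0.01 without it, and that of all genes -0.00. No other left-out library gave a called member. On all 6 libraries DESeq2 called 4 members higher (Atg2b, Atg4c, Atg9a and Optn; 8.51%), beside 10.8% of all genes, and edgeR without a filter on low counts called Atg2b, Atg4c, Optn and Rubcn, beside 7.15% of 24095 genes, whereas limma-voom called 0 of 47. Under none of the alternatives was a member called lower.

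The ratio of related genes within a library does not depend on scaling between libraries, so 10 pairs were compared this way, an addition made after the members' values were seen. The log2 ratio of Atg2b to Atg2a counts was -3.09, -3.76 and -3.56 in WT and -0.37, -2.27 and -1.38 in IRF8-cKO. Every IRF8-cKO library was above every WT library, by 2.13 on the log2 scale on average (a 4.37-fold difference of the ratio), though Atg2b still had fewer reads than Atg2a throughout. Atg16l2 relative to Atg16l1 differed by 1.00, from a mean of -2.88 ± 0.25 in WT to -1.88 ± 0.58 in IRF8-cKO (SD, n = 3 each), again without overlap. For both, an exact two-sided permutation test gave p = 0.1, the smallest that 3 against 3 libraries allow, and 0.5 after adjustment over the 10 pairs. The other 8 pairs overlapped between groups. Among single genes tested, 14.4% were higher in IRF8-cKO without overlap and 14.5% lower, and no such share was computed for pairs. A ratio does not remove a trend with gene length, and Atg2b (13456 bases) is longer than Atg2a (7693 bases). Part of the Atg2b reads is also uncertain, as given above. Map1lc3b over Map1lc3a was 1.5, 1.47 and 1.49 in WT (SD 0.01), but 2.63, 2.11 and 1.21 in IRF8-cKO.

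**Figure D5:**
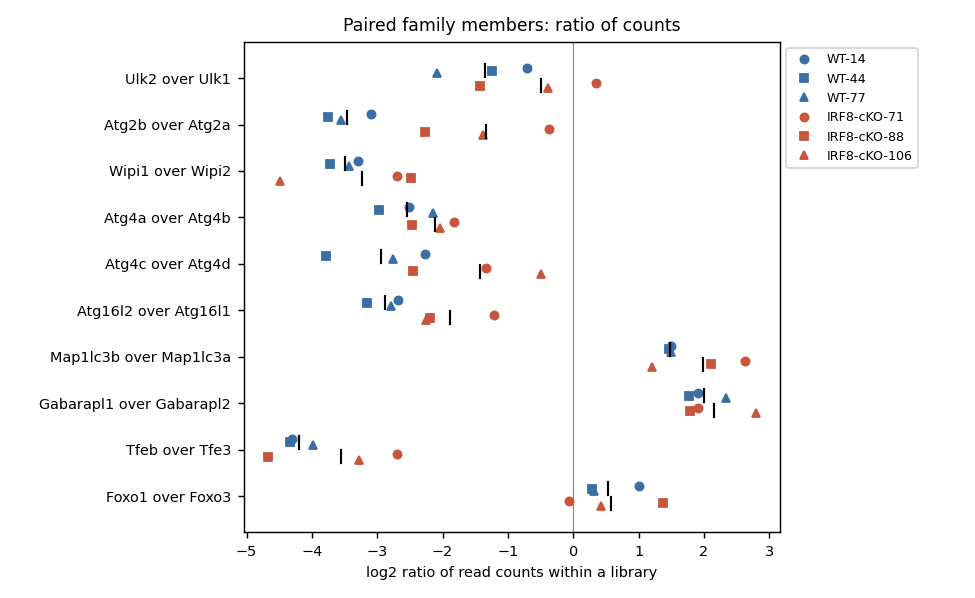
Log2 ratio of read counts of 10 pairs of related genes within each library (horizontal axis); blue symbols are WT, red symbols IRF8-cKO, the shape names the library and black bars are group means. Atg2b over Atg2a and Atg16l2 over Atg16l1 do not overlap between groups, and the WT libraries lie almost on one point for Map1lc3b over Map1lc3a.

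Across the 13134 genes tested, longer genes tended to have higher log2 fold changes (Spearman correlation 0.20), and across the 47 members the value was 0.10, both as descriptions over genes that share the same libraries. Atg2b, at 13456 bases, is among the longest members. With a correction for length in each library, chosen after the data were seen, its log2 fold change was 0.87 (edgeR adjusted p = 0.116), Optn stood at 0.93, Atg9a at 0.95 and Atg4c at 1.69, and 0 members were called.

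Of the further genes of the pathway, 0 of 97 tested (of 101 listed) passed over all genes, with 22 higher and 5 lower at an unadjusted p under 0.05 (27.8% together) and a median of 0.14. That share is near the 24.1% of all genes tested, of which 12.1% were higher and 12% lower and whose median was 0.03. Upstream sensors had a median of 0.17 over 31 genes, with 5 higher and 1 lower at that p (19.4%). The lowest p there belonged to Rptor, the mTORC1 scaffold that binds substrates, at 23.0, 21.9 and 17.4 CPM in the WT libraries and 38.0, 30.4 and 46.8 in the IRF8-cKO libraries (log2 fold change 0.89, edgeR adjusted p = 0.0990), and Prkaa2, a catalytic subunit of AMPK (log2 fold change 0.89, edgeR adjusted p = 0.108). Other initiation and membrane supply genes had a median of 0.50 over 17 genes, 13 of them positive (76.5%, beside 51.5% of all genes tested). At an unadjusted p under 0.05, 6 of them were higher and 1 lower (41.2%, beside 24.1% of all genes tested). Zfyve26, encoding a phosphoinositide-binding protein, came closest to the threshold of all pathway genes, at 11.8, 9.84 and 11.2 CPM in the WT libraries and 28.1, 19.4 and 31.2 in the IRF8-cKO libraries (log2 fold change 1.26, SE 0.28, edgeR adjusted p = 0.0562). Trappc8, a vesicle tethering gene, followed (log2 fold change 1.09, edgeR adjusted p = 0.0700).

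Genes of autophagosome fusion with lysosomes had a median of -0.06 over 18 genes, with 5 higher and 0 lower at an unadjusted p under 0.05 (27.8%, beside 24.1% of all genes tested). Vps33a and Vps41, subunits of the HOPS tethering complex, stood at log2 fold changes of 0.96 (edgeR adjusted p = 0.106) and 0.74 (edgeR adjusted p = 0.123). Other receptors and mitophagy genes had a median of -0.15 over 16 genes, with 1 higher and 2 lower at that p (18.8%). Retreg1, the endoplasmic reticulum receptor FAM134B, ranged widely, at 193, 350 and 558 CPM in the WT libraries and 26.0, 205 and 81.9 in the IRF8-cKO libraries (log2 fold change -1.81, SE 0.69, edgeR adjusted p = 0.166), and Ncoa4, the ferritin receptor, stood at 0.92 (edgeR adjusted p = 0.200). Among other transcriptional regulators the median was 0.06 over 15 genes, with 5 higher and 1 lower at that p (40%, beside 24.1% of all genes tested). Keap1, the ubiquitin ligase adaptor that p62 binds and that restrains NRF2, was at 33.4, 20.2 and 22.2 CPM in the WT libraries and 50.4, 46.1 and 56.5 in the IRF8-cKO libraries, without overlap (log2 fold change 1.01, edgeR adjusted p = 0.0869). Nr1h4, the bile acid receptor FXR, stood at 1.84 (edgeR adjusted p = 0.0955), with 184 CPM in IRF8-cKO-71 against 34.4 and 70.3 CPM in both other IRF8-cKO libraries and 21.8 to 31.8 CPM in WT. Without IRF8-cKO-88 edgeR called 8 of these further genes, namely Rptor, Nprl2, Depdc5, Tbc1d7, Zfyve26, Trappc8, Nr1h4 and Retreg1, out of 101 listed, while 8.83% of all genes tested were then called.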

How the data were processed

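The authors deposited one table of raw counts per gene for 6 libraries. Trizol RNA went into NEBNext Ultra libraries, per the labels' protocols. Per the submitters' processing notes, HISAT2 2.0.5, featureCounts 1.5.0-p3 and mm10 were used. Gene lengths are those of the deposited table. The sources used here give neither the strand setting nor the annotation release.

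Groups came from the sample titles, whose numbers the groups do not share. Counts were fitted across all genes with edgeR 4.0.16 in R 4.3.3: TMM scaling, filterByExpr (minimum count 10, minimum total 15), robust quasi-likelihood, a group term and no covariate, a two-sided test and Benjamini-Hochberg adjustment over all 13134 genes tested, at 0.05. CPM were scaled by TMM factors. Standard errors were taken as the size of the log2 fold change over the root of F, and 95% intervals use the test's degrees of freedom. SDs and centred values use log2 CPM with a prior count of 2. The biological coefficient of variation was 37.1%. The procedure was tested on simulated data. Alternatives were other scalings and filters, DESeq2 1.42.0, limma-voom (limma 3.58.1), no robust shrinkage, each library left out, and, added after seeing the data, a per-library lowess on gene length (span 0.5). Exon overlaps and near-identical transcripts (95% identity over 200 bases) were taken from GENCODE M21, in which 46 members have the table's start and end. Promoters are from RefSeq.

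The members and the lists were chosen with earlier results of these data known. Named with values in every library are the 15 members with the lowest p and Ulk1, Becn1, Atg5, Atg7, Atg12, the ATG8 genes, Sqstm1, Bnip3l, Pink1, Tfeb and Foxo1; from each further list the 2 genes with the lowest p are named. Other genes named were chosen after their values were seen.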

Additional observations from a re-analysis of the deposited data

How the results depend on the processing

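The fold of no member moved by over 1.5 times under any of 15 alternatives, and 28 of 47 members kept their direction under all of them; the other 19 had log2 fold changes of at most 0.36 in size. No paired analysis was possible because the groups share no replicate number. The number of members called was 4 with DESeq2, 4 without a low-count filter, 0 to 3 with 1 library left out and 0 otherwise. Over all genes, 182 calls (59 higher, 123 lower) became 82 with library totals as scaling (39 higher, 43 lower), 1723 without a filter (817 and 906), 1423 with DESeq2 (613 and 810), 111 with limma-voom, 77 with the length correction, and 0 to 1205 with 1 library left out: 0 without WT-77 (1988 genes at an unadjusted p under 0.05), 1 without WT-44, 1205 without IRF8-cKO-88 and 20 without IRF8-cKO-106. The cause was not tested. Further genes called with 1 library left out numbered 0 to 4 among sensors, 0 to 2 among initiation genes, 0 to 1 among receptors and 0 to 1 among regulators. Library totals moved the median of all genes from 0.03 to 0.25 and that of the members from 0.11 to 0.29. Under them, 11 members turned positive: Atg14 0.22, Uvrag 0.15, Gabarapl2 0.15, Fundc1 0.15, Atg16l1 0.14, Atg7 0.12, Gabarap 0.12, Becn1 0.09, Vmp1 0.04, Atg3 0.03 and Foxo1 0.02, all below the shifted median of all genes. With the length correction 5 turned: Gabarap 0.09, Gabarapl2 0.06, Fundc1 0.04, Map1lc3b -0.01 and Tax1bp1 -0.12. With limma-voom Wipi1 was -0.09. Leaving out 1 library turned 14 members, over these ranges: Ambra1 -0.15 to 0.52, Atg13 -0.31 to 0.44, Atg14 -0.12 to 0.04, Atg4d -0.13 to 0.32, Foxo1 -0.57 to 0.11, Fundc1 -0.23 to 0.01, Gabarap -0.34 to 0.17, Gabarapl1 -0.09 to 0.23, Gabarapl2 -0.12 to 0.09, Map1lc3b -0.05 to 0.29, Sqstm1 -0.00 to 0.67, Tax1bp1 -0.06 to 0.10, Uvrag -0.27 to 0.24 and Wipi1 -0.41 to 0.53. Depth limits Atg10, Tfeb and Atg4c most, with 13, 21 and 17 reads in their lowest library.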
